A study of Mus musculus with 20 samples.

Results

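The Ugt1a locus encodes UDP-glucuronosyltransferases, and Ugp2 and Ugdh encode the enzymes that make their co-substrate, UDP-glucuronate. This account covers 8 genes chosen by name from the 49315 genes of a liver expression table: Ugt1a1, Ugt1a5, Ugt1a6a, Ugt1a6b, Ugt1a9 and Ugt1a10 of the locus, with Ugdh and Ugp2. In livers of mice given S217879, 6 of the 7 genes abundant enough to test were higher than in livers of mice given vehicle, and Ugt1a5 was lower, where 6.07% of all tested genes were called higher and 23.5% lower. Ugt1a9 rose most, 8.89-fold, followed by Ugdh, 3.65-fold, while Ugt1a1, the most abundant gene of the locus, rose 1.39-fold.

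Glucuronidation attaches glucuronic acid to bilirubin, steroids, phenols and many drugs, which makes them more soluble in water so that they can leave in bile or urine. UDP-glucose pyrophosphorylase, the product of Ugp2, makes UDP-glucose from glucose 1-phosphate and UTP. UDP-glucose dehydrogenase, the product of Ugdh, oxidises UDP-glucose to UDP-glucuronate in the cytosol. The UDP-glucuronosyltransferases, which sit in the membrane of the endoplasmic reticulum, then transfer the glucuronic acid to the acceptor. NRF2, which KEAP1 holds back, is a transcription factor known for raising glucuronidation and glutathione genes in liver.

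The mice were obese through diet, a model of steatohepatitis (DIO NASH), and both groups stayed on the AMLN diet, which is rich in fat, fructose and cholesterol. The vehicle group (10 livers) received HEC 1% and the S217879 group (10 livers) received S217879 at 30 mg/kg, by mouth once a day, each for 8 weeks. The series' title concerns disruption of the NRF2-KEAP1 interaction. Each library carries an animal number of its own, so the p-values measure the spread between animals, and the labels used here state no strain, age or sex. RNA from whole liver was captured by its poly(A) tail and sequenced with a stranded kit, and levels are given as TPM, transcript abundances that are scaled to gene length and sum to 1000000 in each library.

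Vehicle replicates 6 and 7 stood apart from the rest before any comparison. There, 4 genes of ribosomal RNA type (Gm23935, Gm24270, Gm42418 and Mir6236) took 58.2% and 50.7% of all TPM, against 14.1 to 38.1% in the other 18 libraries, and every other gene shares what is left. Values without these 2 libraries are given beside each member. The label gives liver, and 9 hepatocyte markers summed to 29673 to 67962 TPM in vehicle and 39047 to 60234 TPM in S217879 libraries, mostly Alb. Of these 9 markers, Ttr, Serpina1c and Asgr1 rose (log2 0.50, 0.53 and 0.36) and Apoa1 fell (log2 -0.69) by limma. Kidney tubule markers, from a tissue that also makes glucuronosyltransferases, were under 1 TPM in every library for 8 of 8 genes, and intestinal markers for 7 of 8, with Cdx2 at 0 throughout. The exception was Fabp2, a fatty acid binding protein gene, at 108 to 237 TPM in vehicle and 133 to 272 TPM in S217879 livers. Of 8 bile duct markers, 5 were tested and 3 fell, where 23.5% of all tested genes were called lower. Their summed level was 188 to 483 TPM in vehicle and 99.0 to 257 TPM in S217879 livers, mostly Spp1, and 21.5 to 46.2 and 19.7 to 37.0 TPM without it. The part of these markers in the results below was not tested. In bulk tissue, fewer cells of a type and less RNA per cell cannot be told apart.

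The genes of the locus differ in their first exon and share the rest. In the GENCODE M21 annotation of the GRCm38 build, they lie on the plus strand of chromosome 1: Ugt1a10 (ENSMUSG00000090165) starts at 88055388, Ugt1a9 (ENSMUSG00000090175) at 88070800, Ugt1a6b (ENSMUSG00000090145) at 88103252, Ugt1a6a (ENSMUSG00000054545) at 88134809, Ugt1a5 (ENSMUSG00000089943) at 88166012 and Ugt1a1 (ENSMUSG00000089960) at 88211959. The first exon encodes the part of the enzyme that binds the acceptor, and the common exons encode the part that binds UDP-glucuronate. Exons 2 to 5, which begin at 88215044, were identical over 1311 bases in all 9 genes annotated at the locus, whereas the first exons were 52.8 to 94.9% identical to each other. Ugt1a6a and Ugt1a6b were the closest pair, at 94.9%, and Ugt1a9 and Ugt1a10 were 86.9% identical. The end of each first exon and the start of exon 2 are shown next, because only the lower-case letters tell transcripts of these genes apart. Letters come from the GENCODE M21 transcripts, in lower case for the last 30 bases of the first exon and in capitals for the first 30 bases of the shared exon 2.
Ugt1a1: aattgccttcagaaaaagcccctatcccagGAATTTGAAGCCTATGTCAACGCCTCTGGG
Ugt1a5: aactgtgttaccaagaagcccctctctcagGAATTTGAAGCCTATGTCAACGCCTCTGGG
Ugt1a6a: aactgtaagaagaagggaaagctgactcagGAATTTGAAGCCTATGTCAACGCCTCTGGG
Ugt1a6b: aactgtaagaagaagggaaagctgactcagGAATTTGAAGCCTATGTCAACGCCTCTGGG
Ugt1a9: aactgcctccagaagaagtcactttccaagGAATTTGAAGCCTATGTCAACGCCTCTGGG
Ugt1a10: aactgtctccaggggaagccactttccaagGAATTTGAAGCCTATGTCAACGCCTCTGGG
Ugt1a6a and Ugt1a6b have the same letters across this junction.

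Between 39.4 and 49.7% of the exon bases of each of the 6 Ugt1a genes belong to no other gene, so a level in this table depends on how reads in the shared exons were assigned, which the sources used here do not give. Reads of the shared exons had not been credited in full to every gene: Ugt1a8, which is also annotated at the locus, stood at 0.0523 ± 0.0201 TPM in vehicle livers in which Ugt1a1 stood at 133 ± 37.5 TPM (SD, n = 10). Levels of Ugt1a6a and Ugt1a6b in particular are uncertain, since short reads may not tell their first exons apart. An antisense gene, Gm20528, overlaps exons of all 6 and was listed at 0 in all 20 libraries.

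Differences were tested with limma on log2(TPM + 0.5) over the 13401 genes that averaged 1 TPM or more, and a gene was called at a Benjamini-Hochberg adjusted p under 0.05. Among those genes, 6.07% were called higher and 23.5% lower (813 and 3151 genes), with a median log2 difference of -0.12. With median-of-ratios scaling, which sets libraries level on their typical gene, 30.8% were called higher and 22.7% lower (4123 and 3042 genes), with a median of 0.02. Of the 8 members, 7 were tested, 6 were called higher and 1 lower. After the scaling just named, 6 were called higher and 0 lower. Their median log2 difference was 0.94 as deposited and 1.10 after that scaling. For 5 members every S217879 liver was above every vehicle liver, which held for 1.84% of all tested genes, while 1.89% of genes were separated in the other direction.

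**Figure D1:**
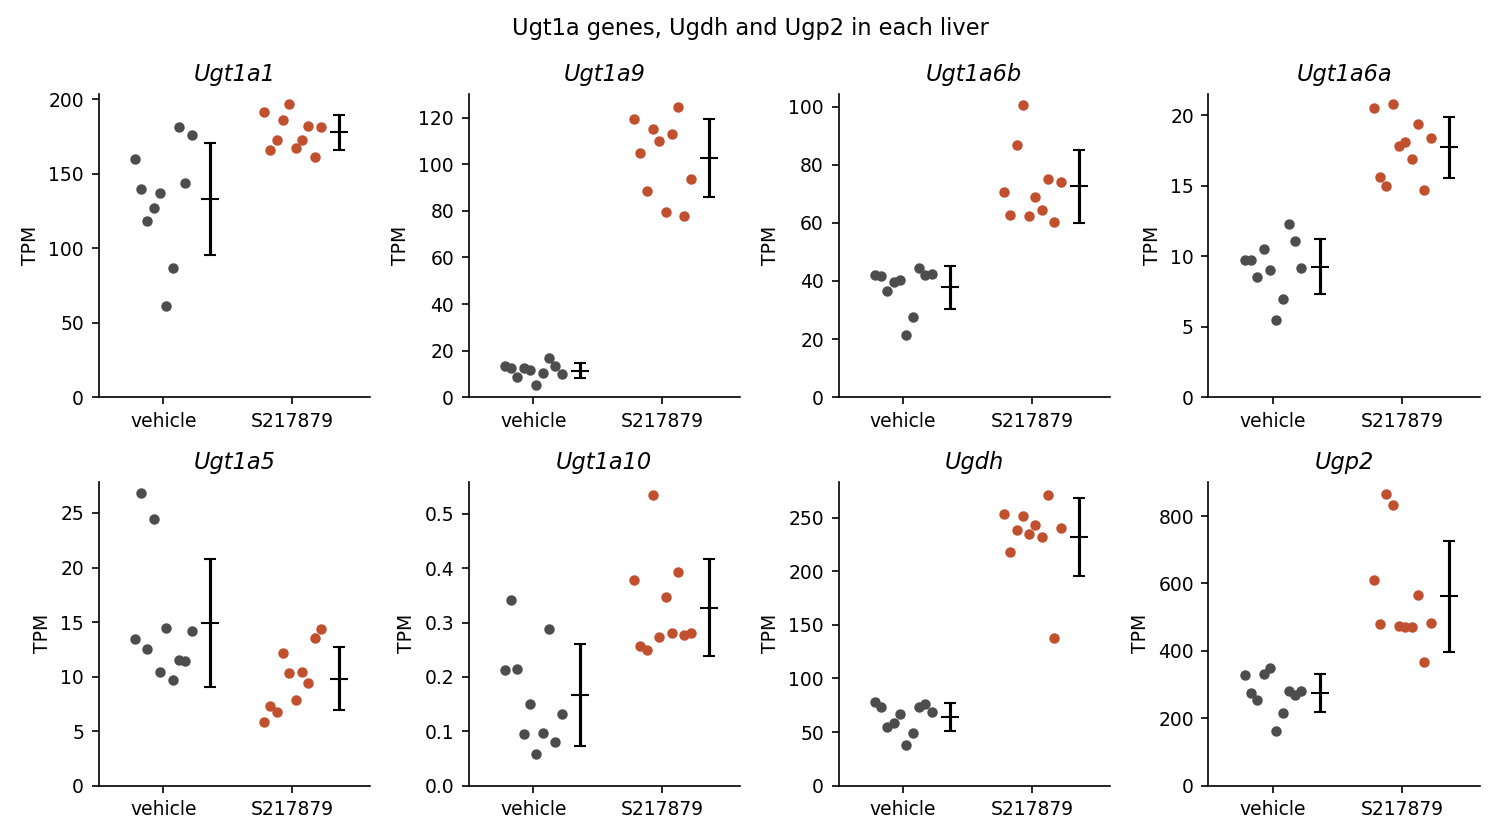
Level of each of the 8 genes (TPM, linear axis from 0) in the 10 vehicle and the 10 S217879 livers, 1 point per liver, with the mean ± SD beside each group. The groups do not overlap for Ugt1a9, Ugt1a6b, Ugt1a6a, Ugdh and Ugp2, and they overlap for Ugt1a1, Ugt1a5 and Ugt1a10.

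Ugt1a9, an enzyme for phenols and other small acceptors, showed the largest difference of the members and ranked 16 of 13401 genes from the highest log2 difference. Vehicle livers held 5.15 to 16.6 TPM with a median of 11.95, and S217879 livers held 78.0 to 124 TPM with a median of 107. The lowest S217879 liver was thus far above the highest vehicle liver, and the groups did not overlap. The mean rose from 11.4 ± 3.10 to 103 ± 16.6 TPM (SD, n = 10 each), a log2 difference of 3.15 with an SE of 0.14 (limma adjusted p = 7.11e-21). Without vehicle replicates 6 and 7 the log2 difference was 3.01.

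Ugt1a6a and Ugt1a6b, the phenol-conjugating pair, rose by nearly the same factor from different levels. Ugt1a6b spanned 21.4 to 44.4 TPM (median 41.1) in vehicle livers and 60.4 to 100.5 TPM (median 69.7) in S217879 livers. Its groups did not overlap; vehicle replicates 6 and 7 were the lowest livers, and S217879 replicates 3 and 4 the highest. Means were 37.8 ± 7.44 and 72.6 ± 12.6 TPM, a 1.93-fold rise (log2 0.94, SE 0.13, limma adjusted p = 2.13e-07), with a log2 difference of 0.80 without those 2 vehicle libraries. Ugt1a6a spanned 5.48 to 12.3 TPM (median 9.46) in vehicle and 14.7 to 20.8 TPM (median 17.95) in S217879 livers, again without overlap. Its mean rose 1.90-fold, from 9.26 ± 1.97 to 17.7 ± 2.18 TPM (log2 0.92, SE 0.12, limma adjusted p = 4.57e-08), and the log2 difference was 0.79 without the same 2 libraries. Ugt1a6b was the more abundant of the pair in every library.

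Ugt1a1, the enzyme that conjugates bilirubin, changed least of the genes that rose, and its groups overlapped. Vehicle livers held 61.2 to 182 TPM with a median of 138, and S217879 livers 161 to 197 TPM with a median of 177. Vehicle replicates 6 and 7 were lowest, 8 vehicle livers lay below the lowest S217879 liver, and 4 S217879 livers lay above the highest vehicle liver. The mean was 133 ± 37.5 TPM in vehicle and 178 ± 11.7 TPM in S217879 livers, with a log2 difference of 0.48, an SE of 0.14 and a limma adjusted p of 0.00965. Without the 2 vehicle libraries rich in ribosomal RNA type genes, the vehicle mean was 148 ± 22.6 TPM (n = 8) and the log2 difference of Ugt1a1 was 0.28 (limma adjusted p = 0.00475).

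Ugt1a5 was the member that fell, and its call was the least firm. It held 9.69 to 26.8 TPM (median 12.99) in vehicle livers and 5.87 to 14.3 TPM (median 9.88) in S217879 livers. The groups overlapped, although 5 S217879 livers lay below the lowest vehicle liver and 3 vehicle livers above the highest S217879 liver. Means were 14.9 ± 5.89 and 9.79 ± 2.89 TPM, a log2 difference of -0.55 with an SE of 0.19 (limma adjusted p = 0.031), and without vehicle replicates 6 and 7 the log2 difference was -0.61 (limma adjusted p = 0.0157). The adjusted p passed 0.05 under median-of-ratios scaling (0.0785), quantile normalization (0.0685) and no minimum level (0.0571), and when S217879 replicate 1, 2, 3 or 6 was left out (0.0508 to 0.0601), and over all alternatives it ran from 3.26e-04 to 0.0785.

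Ugt1a10, whose human counterpart is known as an enzyme of the intestine, was barely detected. It spanned 0.0581 to 0.342 TPM (median 0.141) in vehicle and 0.250 to 0.535 TPM (median 0.281) in S217879 livers, and the groups overlapped. Means of 0.167 ± 0.0945 and 0.328 ± 0.0887 TPM put it under the minimum of 1 TPM, so it has no test among the main results. Without vehicle replicates 6 and 7 the vehicle mean was 0.189 ± 0.0924 TPM (n = 8). With no minimum, its log2 difference on the log2(TPM + 0.5) scale was 0.32 (limma adjusted p = 0.00872), a scale that understates changes at such low levels.

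**Figure D2:**
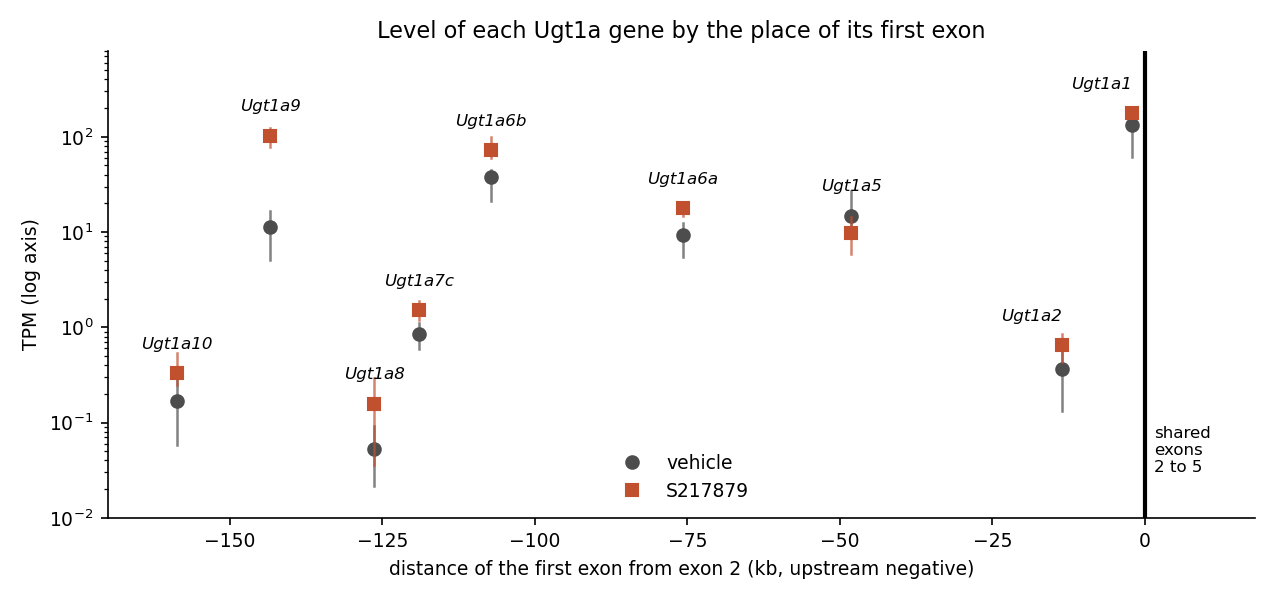
Mean level (TPM, log axis; lines span the lowest to the highest of 10 livers) of the 9 Ugt1a genes against the distance from the end of each first exon to the shared exon 2 (kb, upstream negative), with vehicle as circles and S217879 as squares. Ugt1a9 and Ugt1a10 lie at the far end of the locus at different levels, and Ugt1a1 lies nearest to exon 2.

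Genes near each other along the locus differed in level. Ugt1a5, whose call was the least firm, was the only gene of the locus called lower. The first exon of Ugt1a1 ends 2172 bases before exon 2 and that of Ugt1a5 48140 bases before it, with that of Ugt1a2 between them, and Ugt1a1 was higher while Ugt1a5 was lower. Ugt1a9 and Ugt1a10 are the outermost, at 143365 and 158707 bases, and differed widely in level. The 250 bases before their RefSeq transcription starts (GRCm38.p6, plus strand) are shown because these neighbours have similar sequences there, 68.9% identical, and such different levels.
Ugt1a9, chr1:88070529-88070778: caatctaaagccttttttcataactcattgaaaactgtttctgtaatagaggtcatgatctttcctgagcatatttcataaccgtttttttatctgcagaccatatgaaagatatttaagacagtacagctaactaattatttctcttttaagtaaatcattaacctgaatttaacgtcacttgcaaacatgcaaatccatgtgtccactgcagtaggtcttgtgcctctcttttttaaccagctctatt
Ugt1a10, chr1:88055161-88055410: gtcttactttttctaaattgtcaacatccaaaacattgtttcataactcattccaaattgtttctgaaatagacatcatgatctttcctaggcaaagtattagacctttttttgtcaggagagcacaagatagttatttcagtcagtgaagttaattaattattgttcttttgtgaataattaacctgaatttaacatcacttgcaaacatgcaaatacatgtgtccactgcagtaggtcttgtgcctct
Neither window holds the core of an antioxidant response element, the site NRF2 is known to bind (TGACNNNGC, searched on both strands), or of a xenobiotic response element, the site of the aryl hydrocarbon receptor (GCGTG, both strands), and none of their letters is therefore in capitals. This says only that these letters are not in these windows. Among the members, 7 of 8 had such windows, 8 in all. The windows of Ugt1a1 and Ugt1a6a held no match of either core, and that of Ugt1a5 held 1 match of GCGTG. Over 32536 windows of the same length, 10.2% held the first core and 28.4% the second.

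The summed level of the 9 Ugt1a genes was 109 to 268 TPM in vehicle and 330 to 437 TPM in S217879 livers, with means of 208 ± 49.5 and 383 ± 33.2 TPM and no overlap. The make-up of the sum differed too. Ugt1a1 supplied 63.3 ± 4.26% of it in vehicle and 46.5 ± 2.14% in S217879 livers. Ugt1a9 went from 5.50 ± 0.915% to 26.7 ± 2.77% and Ugt1a5 from 7.53 ± 3.25% to 2.57 ± 0.821%. For these 3 shares the groups did not overlap. Ugt1a6b supplied 18.4 ± 1.15% and 18.9 ± 2.55%, and Ugt1a6a 4.51 ± 0.456% and 4.62 ± 0.353%, with overlapping groups. These shares describe the table and carry no test.

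**Figure D3:**
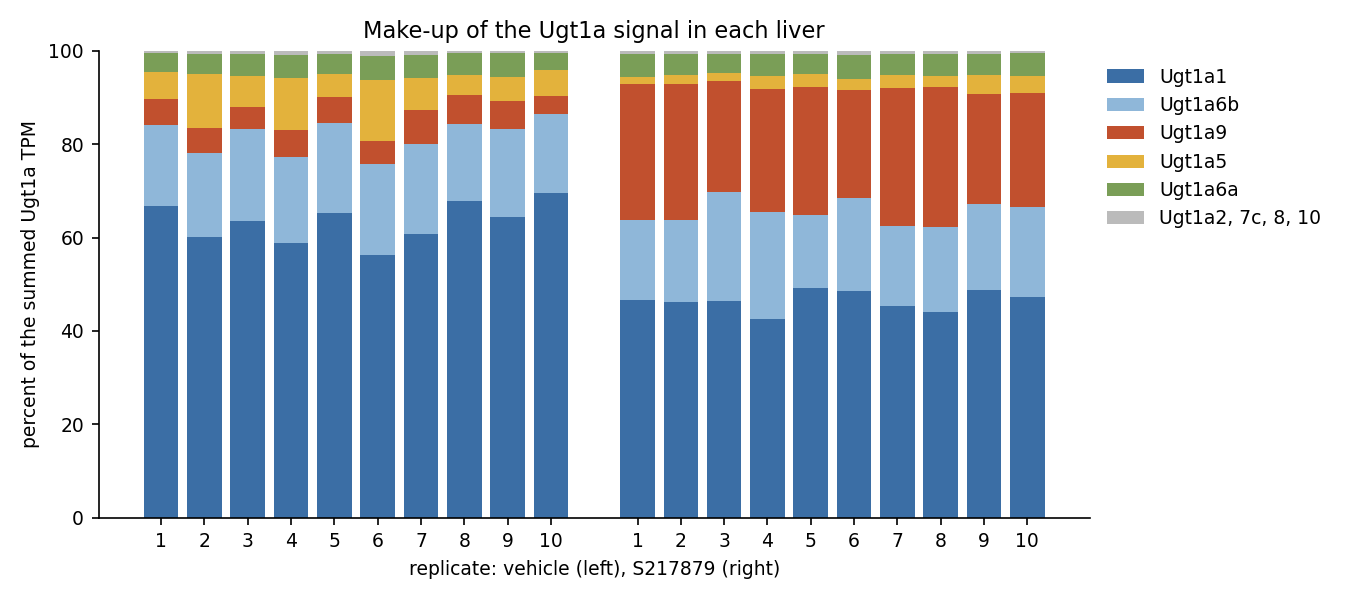
Percent of the summed Ugt1a TPM supplied by each gene in each liver (stacked bars from 0 to 100%, 10 vehicle livers on the left and 10 S217879 livers on the right). The Ugt1a9 segment is 3.90 to 7.21% in vehicle and 23.1 to 30.1% in S217879 livers, and the Ugt1a1 segment is smaller in every S217879 liver than in any vehicle liver.

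The other Ugt1a genes of the locus were scarce. Ugt1a7c, the only other member of the locus with a mean above 1 TPM over all libraries, went from 0.859 ± 0.159 to 1.52 ± 0.234 TPM without overlap (log2 0.57, limma adjusted p = 1.96e-05). Its vehicle mean lay under 1 TPM, so it passed the minimum for testing only through its level in S217879 livers. Its log2 difference also depended on the added constant, with 0.76 for 0.1 TPM and 0.44 for 1 TPM. Ugt1a2 held 0.368 ± 0.141 and 0.645 ± 0.147 TPM, and Ugt1a8 0.0523 ± 0.0201 and 0.157 ± 0.0754 TPM, with overlapping groups and no main test. Of the summed Ugt1a level, Ugt1a7c supplied 0.43 ± 0.096% in vehicle and 0.40 ± 0.045% in S217879 livers, and Ugt1a2 0.20 ± 0.13% and 0.17 ± 0.044%. Ugt1a8 supplied 0.028 ± 0.016% and 0.042 ± 0.022%, and Ugt1a10 0.078 ± 0.036% and 0.085 ± 0.018%. Groups overlapped for each of these shares. How far reads of shared exons or similar first exons enter these low levels was not tested.

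Both enzymes that supply UDP-glucuronate rose. Ugdh (ENSMUSG00000029201, chromosome 5, 65413221 to 65435949, minus strand), which catalyses the oxidation to UDP-glucuronate, ranked 59 of 13401 genes from the highest log2 difference. It spanned 38.3 to 78.1 TPM (median 67.7) in vehicle and 138 to 272 TPM (median 239) in S217879 livers. Each S217879 liver was above each vehicle liver; S217879 replicate 9 was the lowest of its group, and the next stood at 218 TPM. Means were 63.7 ± 13.1 and 232 ± 36.2 TPM, a 3.65-fold rise (log2 1.87, SE 0.13, limma adjusted p = 1.57e-14), and the log2 difference was 1.74 without vehicle replicates 6 and 7. The annotation places 158 exon bases of Ugdh also in Gm43552, which held at most 0.135 TPM.

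The 250 bases before the RefSeq start of Ugdh (GRCm38.p6, minus strand) are shown because this window, unlike those of the Ugt1a members, holds matches of both cores. Capitals mark each match.
Ugdh, chr5:65435843-65436092: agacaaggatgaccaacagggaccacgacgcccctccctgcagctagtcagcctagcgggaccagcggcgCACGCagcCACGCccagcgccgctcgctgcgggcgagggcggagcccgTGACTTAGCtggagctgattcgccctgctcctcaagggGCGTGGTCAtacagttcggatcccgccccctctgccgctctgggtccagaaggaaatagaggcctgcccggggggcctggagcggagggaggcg
TGACTTAGC, a match of the antioxidant response core, lies 123 bases before the start. GCGTGGTCA, a match of the same core on the other strand, lies 85 bases before it and overlaps 1 of the 3 matches of GCGTG, whose other 2 read CACGC on the printed strand. A match is a description of the letters, and no binding was measured in these samples.

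Ugp2 (ENSMUSG00000001891, chromosome 11, 21321138 to 21371201, minus strand), which makes UDP-glucose for glycogen as well as for glucuronidation, was the most abundant member in both groups and ranked 164 of 13401. It spanned 162 to 348 TPM (median 277) in vehicle and 366 to 866 TPM (median 482) in S217879 livers. The groups did not overlap, and the S217879 livers were uneven: replicates 3 and 4, which were also highest for Ugt1a6b, stood well above the rest. Means were 274 ± 55.7 and 562 ± 165 TPM, a 2.02-fold rise (log2 1.01, SE 0.15, limma adjusted p = 1.26e-06), and the log2 difference was 0.88 without vehicle replicates 6 and 7. Of 2 RefSeq windows for Ugp2, 1 held 5 matches of GCGTG, and neither held the antioxidant response core. The antisense gene Gm12043, which lies over 78 exon bases of Ugp2, held 0.882 ± 0.0891 and 1.34 ± 0.362 TPM.

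Ratios of plain TPM between members within a liver do not depend on the scale of the library. The 6 ratios tested were of (TPM + 0.5), so a small dependence remains for members at low levels. For Ugt1a6a over Ugt1a1, the log2 difference was 0.41 with 1 TPM added and 0.48 with no constant added. Two-sided permutation tests were used for the 6 ratios (100000 resamples, adjusted by Benjamini-Hochberg over the 6). The locus members changed by different amounts: against Ugt1a1, the log2 ratio of Ugt1a9 rose by 2.67 from -3.48 ± 0.27 to -0.81 ± 0.19 (permutation p = 4e-05, adjusted 8e-05), with no overlap. Ugt1a6b and Ugt1a6a rose against Ugt1a1 by 0.47 (permutation p = 4e-05, adjusted 8e-05) and 0.44 (permutation p = 1.1e-04, adjusted 1.3e-04), with overlapping groups. Ugt1a5 fell against Ugt1a1 by 1.03 on the log2 scale (permutation p = 4e-04, adjusted 4e-04), also with overlap, and this ratio kept its call under all 24 alternatives tried for it.

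Ugdh rose more than Ugp2, the gene before it in the pathway, and more than Ugt1a1, the most abundant gene of the locus. Its log2 ratio to Ugp2 went from -2.10 ± 0.21 to -1.24 ± 0.32, a difference of 0.86 (permutation p = 7e-05, adjusted 1e-04), with overlap. Against Ugt1a1 it went from -1.03 ± 0.21 to 0.37 ± 0.23, a difference of 1.39 with no overlap (permutation p = 1e-05, the smallest these resamples can give, adjusted 6e-05). Ugdh was thus below Ugt1a1 in 10 of 10 vehicle livers and above it in 9 of 10 S217879 livers, the exception being replicate 9.

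**Figure D4:**
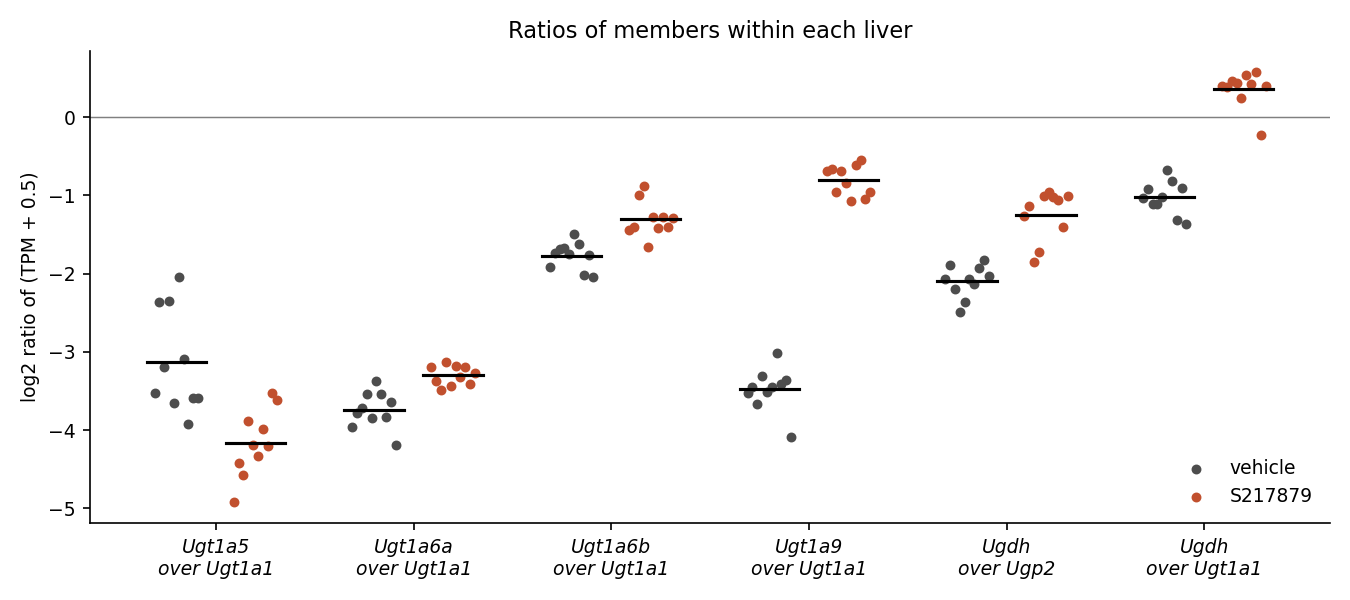
Log2 ratio of (TPM + 0.5) between 2 members in the same liver, 1 point per liver, with bars at the group means, for the 6 ratios tested in 10 vehicle and 10 S217879 livers. Ugt1a9 over Ugt1a1 and Ugdh over Ugt1a1 do not overlap between the groups, and Ugt1a5 over Ugt1a1 is lower in the S217879 group.

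On the TPM scale, which is per length, the vehicle order from highest to lowest mean was Ugp2, Ugt1a1, Ugdh, Ugt1a6b, Ugt1a5, Ugt1a9, Ugt1a6a and Ugt1a10. Each gene exceeded the next in 10 of 10 vehicle livers, except that Ugt1a5 exceeded Ugt1a9 in 6 and Ugt1a9 exceeded Ugt1a6a in 9. In S217879 livers the order was Ugp2, Ugdh, Ugt1a1, Ugt1a9, Ugt1a6b, Ugt1a6a, Ugt1a5 and Ugt1a10. Each gene exceeded the next in 10 of 10 livers, except Ugdh over Ugt1a1 in 9. Ranges of neighbours overlapped in vehicle livers except between Ugt1a6a and Ugt1a10, and in S217879 livers only between Ugdh and Ugt1a1 and between Ugt1a9 and Ugt1a6b.

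Genes that lead from glucose to UDP-glucose moved in both directions. Of 13 tested, 2 were called higher and 7 lower, with a median log2 difference of -0.29, beside -0.12 over all tested genes, of which 6.07% were called higher and 23.5% lower. With libraries scaled by median of ratios, the counts were 5 and 6, beside 30.8% and 22.7% of all tested genes. Pgm1, the phosphoglucomutase that makes the glucose 1-phosphate used by Ugp2, went from 170 ± 38.3 to 235 ± 23.1 TPM (log2 0.50, limma adjusted p = 0.00343). Galm, a mutarotase for galactose, went from 96.2 ± 20.96 to 120 ± 11.8 TPM (log2 0.35, limma adjusted p = 0.0356), a call lost in 7 of 30 alternatives. The hexokinases Hk2 and Hk3, which phosphorylate glucose, fell from 6.64 ± 1.10 to 3.09 ± 1.08 TPM (log2 -1.03) and from 9.44 ± 2.03 to 6.66 ± 1.36 TPM (log2 -0.46). Pgm3, which acts on N-acetylglucosamine phosphate, fell from 15.4 ± 3.46 to 10.1 ± 1.93 TPM (log2 -0.56).

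Among 10 tested genes for other uses and the transport of UDP-sugars, 2 were higher and 1 lower, with a median log2 difference of -0.03. Over all tested genes, 6.07% were called higher and 23.5% lower, or 30.8% and 22.7% with median-of-ratios scaling. The count of called genes was 3 as deposited and depended on the setting. Higher and lower calls numbered 5 and 1 with median-of-ratios scaling and 5 and 2 with quantile normalization (3536 and 3354 of all tested genes). They were 2 and 6 after rescaling without the ribosomal RNA type genes (1010 and 8576 of all tested genes). With array weights they were 3 and 5 (965 and 8023), and without vehicle replicates 6 and 7 they were 2 and 5 (740 and 7303). Slc35d1, which carries UDP-glucuronate into the endoplasmic reticulum, held 17.2 to 32.5 TPM in vehicle and 48.1 to 68.9 TPM in S217879 livers without overlap (log2 1.12, limma adjusted p = 6.59e-10). Gbe1, the glycogen branching enzyme, also rose without overlap, from 87.9 ± 18.1 to 141 ± 21.5 TPM (log2 0.70). Ugcg, which uses UDP-glucose to make glucosylceramide, fell from 11.3 ± 2.04 to 6.96 ± 0.668 TPM (log2 -0.65).

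Glucuronate breakdown and ascorbate synthesis split into risers and fallers. Of 7 tested genes, 3 were higher and 3 lower, with a median log2 difference of 0.10. The corresponding shares among the 13401 tested genes were 6.07% and 23.5%. The risers were reductases and a dehydrogenase of the path from glucuronate towards xylulose: Cryl1, the gulonate dehydrogenase, held 10.02 to 34.8 TPM in vehicle and 47.8 to 72.3 TPM in S217879 livers, without overlap (log2 1.63, limma adjusted p = 2.67e-08). Dcxr, the xylulose reductase, went from 95.6 ± 29.2 to 152 ± 22.3 TPM (log2 0.72) and Akr1a1, which reduces glucuronate, from 294 ± 63.2 to 414 ± 47.0 TPM (log2 0.52). The genes that fell were Gulo (log2 -0.80) and Rgn (log2 -0.56), which act in the last steps of ascorbate synthesis, and Gusb (log2 -0.46), the lysosomal enzyme that removes glucuronic acid. Gulo went from 369 ± 73.4 to 210 ± 31.5 TPM (adjusted p = 8.55e-06 by limma). Once libraries were scaled by median of ratios, this list had 4 genes called up and 3 called down. The same scaling called 30.8% of the 13401 tested genes up and 22.7% down.

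The Ugt2 family holds the other glucuronosyltransferases, and the related Ugt3 enzymes are known to use other UDP-sugars; both are encoded by separate genes elsewhere in the genome. Of 10 tested, 8 were called higher and 0 lower, beside 6.07% and 23.5% of all tested genes. The others, Ugt2b37 and Ugt2b38, had log2 differences of 0.05 and 0.61 that missed the threshold. With median-of-ratios scaling, 9 were called higher and 0 lower, beside 30.8% and 22.7% of all tested genes. The list had a median log2 difference of 0.77 beside 0.94 for the 7 tested members. Ugt2b35, Ugt2b5 and Ugt2b1 led, with log2 differences of 2.08, 1.75 and 1.73 (limma adjusted p = 1.32e-14, 3.67e-11 and 1.18e-09), all below that of Ugt1a9. Whether the 2 lists differ was not tested.

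**Figure D5:**
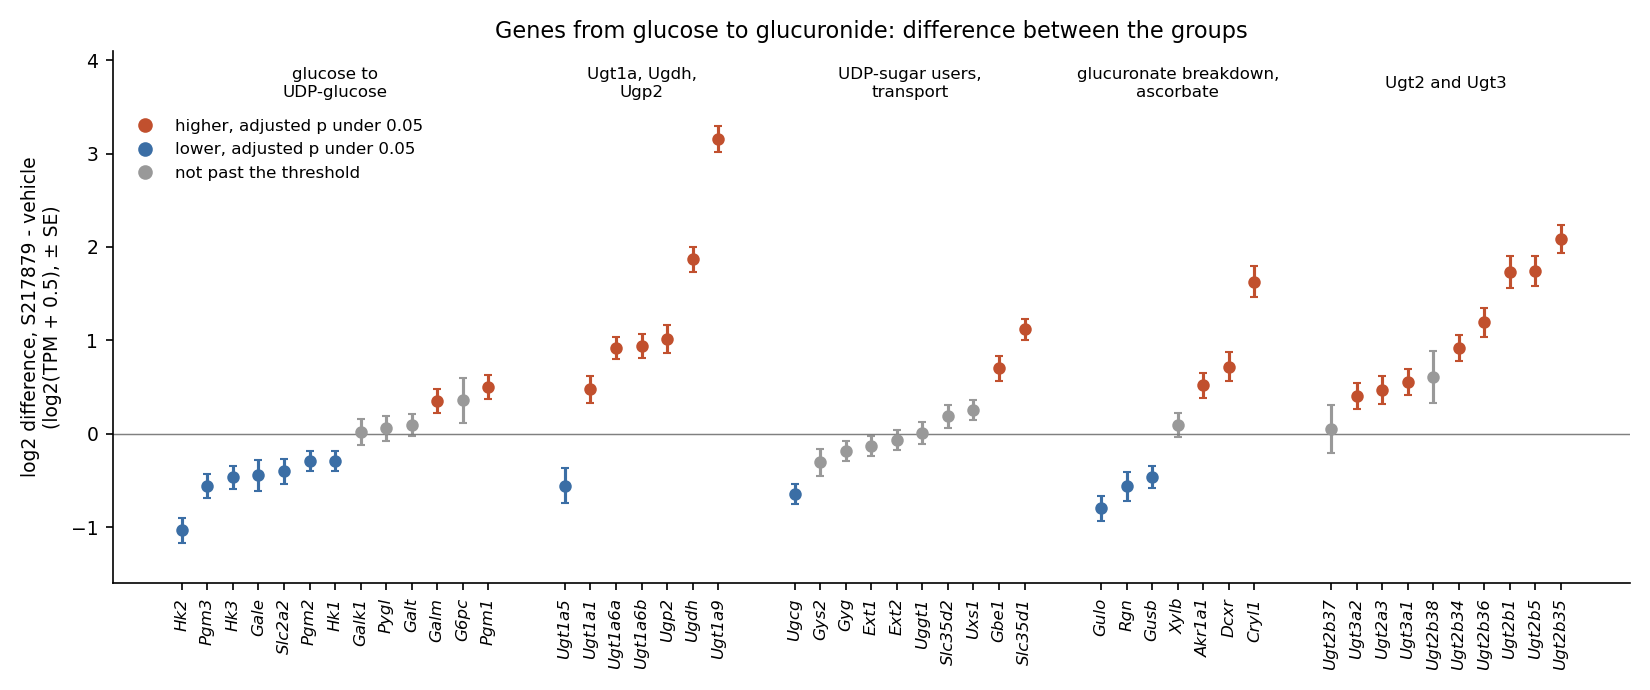
Log2 difference (S217879 minus vehicle, on log2(TPM + 0.5), ± SE) for each tested gene, grouped from glucose to glucuronide, with 10 livers per group. The Ugt1a, Ugdh and Ugp2 block runs from -0.55 for Ugt1a5 to 3.15 for Ugt1a9, and genes between glucose and UDP-glucose lie mostly below 0.

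Within groups, the members did not all vary together. After median-of-ratios scaling, the deviations of each liver from its group mean were compared over the 20 libraries, as a description without a test; the points share their libraries, whose part of ribosomal RNA type genes differs. Pearson's r was 0.84 between Ugt1a6b and Ugp2, 0.80 between Ugt1a6a and Ugt1a9, 0.48 between Ugt1a6a and Ugt1a6b and -0.26 between Ugt1a1 and Ugt1a5. Single livers may carry much of an r. S217879 replicates 3 and 4 were the highest for both Ugt1a6b and Ugp2, and replicate 9 was far the lowest of its group for Ugdh. No r was computed without them. The genes most like Ugt1a1 were Hsd17b11 (r = 0.94), Acsm5 (0.93) and Acot12 (0.92), which act on lipids and acyl-CoA. Those most like Ugt1a9 were Abcc2 (r = 0.85), the canalicular pump for conjugated bilirubin, Rnf128 (0.83) and Tbcel (0.82). For Ugdh they were Aox1, Srxn1 and Pir (each r = 0.92), which encode aldehyde oxidase, sulfiredoxin and pirin. For Ugp2 they were Bche (r = 0.93), the butyrylcholinesterase gene, Tbce (0.92) and Itfg1 (0.91).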

How the data were processed

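Poly(A)-selected RNA from 20 mouse livers was sequenced, and the authors deposited 1 table of TPM values per gene. The submitters' processing notes name Trimmomatic 0.36, STAR 2.5.2b, featureCounts, Subread 1.5.2 and the GRCm38 build. Their settings, the annotation, strand use and the assignment of reads in shared exons were not given in the sources used here. TPM keeps no read counts, so the depth of a library is unknown and counting intervals are left out; 24659 to 27744 genes were above 0 per library. Ensembl identifiers were matched to symbols for 48970 of 49315 genes, and of the marker genes 1 (Tf) was not matched. No 2 libraries held identical values.

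Groups came from the treatment labels. log2(TPM + 0.5) was fitted with limma 3.58.1 (R 4.3.3; trend and robust) over genes averaging 1 TPM or more, with Benjamini-Hochberg adjustment over all of them; fold changes are on that scale. Ratios were tested by permutation with numpy 2.4.6. The scripts were tested on simulated data. Named genes were all 8 members, every gene of lists of 3 or fewer, otherwise the 3 called genes that differed most in each direction, and the 3 genes most like each of 4 members; ranges of other genes are from the same lists. Fabp2, the hepatocyte markers that were called, Ugt2b37, Ugt2b38, Slco1b2 and Blvra were named after their values were seen. From the list of genes between glucose and UDP-glucose, 1 gene was left out and is not reported here, so the counts of that list are over the remaining 14, of which 13 were tested. Members and lists were chosen with earlier results of these data known. Alternatives changed the pseudocount, the minimum, the scaling, library weights and the libraries included. Gene models are GENCODE M21 and start-site windows are RefSeq, GRCm38.p6.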

Additional observations from a re-analysis of the deposited data

Results flagged for a closer look

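In 86 groups of 10 values, 3 had a lowest or highest liver whose gap to its neighbour exceeded Dixon's critical share of the group's range, a rule that flags about 1 group in 20 by chance. S217879 replicate 9 was low for Ugdh, at 137.6 TPM, where the next liver of its group stood at 218 TPM. The same liver was low for the log2 ratio of Ugdh over Ugt1a1, at -0.23, with the next liver at 0.25. S217879 replicate 4 was high for Ugt1a10, at 0.535 TPM, with the next liver at 0.393 TPM.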

How the results depend on the processing

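No paired analysis was possible because the labels number each animal separately, and the replicate numbers used here only name livers in accession order within a group. Of the 7 tested members, 6 kept their direction and call under all 30 alternatives, and between 6 and 8 members were called. The log2 difference of Ugt1a5 stayed negative but its call was lost with no minimum (-0.55), median-of-ratios scaling (-0.41) and quantile normalization (-0.44). With 1 liver left out it ran from -0.62 to -0.45, and the call was lost without S217879 replicates 1, 2, 3 or 6. All 6 ratios kept their call and direction under 24 alternatives each. The number of called genes over the whole table, 3964 (79.5% lower), varied more. It was 2270 with a minimum mean of 5 TPM, 7165 with median-of-ratios scaling (42.5% lower), 6890 with quantile normalization (48.7% lower), 9586 after rescaling without the ribosomal RNA type genes (89.5% lower), 8988 with array weights (89.3% lower) and 8043 without vehicle replicates 6 and 7 (90.8% lower). With 1 liver left out it ran from 3448 to 5982, the highest without vehicle replicate 6; the cause was not tested. Called genes among UDP-sugar users ranged from 3 to 8, and among regulators from 3 to 9. Depth is unknown, so how far counting error limits Ugt1a10 and the other scarce genes cannot be given.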

Other observations

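Genes for bilirubin handling around Ugt1a1 moved in both directions: of 10 tested, 4 were called higher and 2 lower, with a median log2 difference of -0.03. Of all tested genes, 6.07% were called higher and 23.5% lower. With array weights, 4 of the list were higher and 6 lower, where 965 genes of the whole table were called higher and 8023 lower. Abcc4, an efflux pump of the blood-facing membrane, held 1.88 to 4.16 TPM in vehicle and 39.7 to 177 TPM in S217879 livers (log2 5.13, limma adjusted p = 1.24e-13). Blvrb, a biliverdin reductase, rose from 80.3 ± 20.7 to 294 ± 45.5 TPM (log2 1.90, limma adjusted p = 5.73e-14), and Abcc3, another pump of that membrane, from 164 ± 40.7 to 336 ± 45.1 TPM (log2 1.07, limma adjusted p = 9.6e-08). Abcc2, which exports conjugated bilirubin into bile, rose from 197 ± 36.6 to 296 ± 39.1 TPM (log2 0.60). The uptake carriers Slco1a1 and Slco1a4 fell, from 9.64 ± 8.25 to 1.53 ± 0.426 TPM (log2 -1.96) and from 15.7 ± 4.21 to 4.12 ± 1.47 TPM (log2 -1.84, without overlap). The more abundant uptake carrier Slco1b2 was not called, at 365 ± 88.5 and 360 ± 59.9 TPM (log2 0.01, limma adjusted p = 0.966). Blvra, the other biliverdin reductase gene of the list, was not called either (log2 -0.16, limma adjusted p = 0.282).

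Of 12 genes encoding known regulators of the locus, 1 was called higher and 2 lower, beside 6.07% and 23.5% of all tested genes. The balance depended on the setting. It was 3 and 3 with median-of-ratios scaling, where 30.8% of all tested genes were called higher and 22.7% lower. Quantile normalization gave 2 and 7, where 3536 of all tested genes were called higher and 3354 lower. Rescaling without the ribosomal RNA type genes gave 1 and 8, where 1010 of all tested genes were called higher and 8576 lower. Both with array weights and without vehicle replicates 6 and 7 the balance was 1 and 7. Over all tested genes, 965 were called higher and 8023 lower with array weights, and 740 and 7303 without those replicates. Nr1i3, the constitutive androstane receptor gene, rose from 50.5 ± 17.6 to 78.2 ± 11.1 TPM (log2 0.70, limma adjusted p = 9.97e-04). Nfe2l2, the NRF2 gene, was lower, at 53.4 ± 9.53 and 28.5 ± 4.92 TPM (log2 -0.89, limma adjusted p = 3.08e-07). Arnt, the partner of the aryl hydrocarbon receptor, fell from 14.7 ± 2.68 to 10.7 ± 1.65 TPM (log2 -0.42, limma adjusted p = 0.00393).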
